A study of Mus musculus with 12 samples.

Results

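The MiT/TFE family of transcription factors comprises 4 genes, Tfeb, Tfe3, Mitf and Tfec. Its members were taken by symbol from the count table and are 4 of the 24421 genes listed there. The table comes from RNA-Seq of mouse embryonic fibroblasts (MEFs) in 12 libraries, 3 in each of 4 groups. MEFs labelled Null, which the paper calls WT, and MEFs in which TFEB and TFE3 had both been targeted by CRISPR (TFEB/TFE3 DKO) were left as untreated controls or given 100 µM etoposide for 8 hr. Etoposide holds topoisomerase II in its cleaved complex with DNA, which breaks strands. The comparisons ask how the 2 targeted genes and their 2 untargeted relatives were transcribed in each line, and how each answered the drug.

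The 4 groups were Null control, DKO control, Null etoposide and DKO etoposide, all grown in the same high-glucose medium with serum. Each genotype was represented by 1 line, so a difference between genotypes cannot be told apart from a difference between lines. The labels number the replicates but do not say that they were separate cultures, so the p-values measure only the spread between these libraries, which may be technical. They name 2 RNA kits without saying which library was made with which. They describe the controls as untreated, whereas the paper's methods describe a solvent control. Each library held 45577023 to 104120871 counts on genes. Levels are given as CPM, counts relative to the library size after scaling by edgeR's TMM method, which sets libraries on a common scale.

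MiT/TFE proteins are basic helix-loop-helix leucine zipper factors that bind DNA as dimers, with themselves or with each other, at E-box sequences such as those of the CLEAR element in promoters of lysosomal genes. In fed cells, Rag GTPases bring TFEB and TFE3 to the lysosome, where mTORC1 phosphorylates them and 14-3-3 proteins then hold them in the cytosol. Under starvation and other stresses they enter the nucleus and raise genes of lysosomes and autophagy. MITF is best known from pigment cells and osteoclasts, and TFEC from macrophages and osteoclasts. This control acts on the proteins, which RNA-Seq does not measure.

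Promoters of Tfeb and Mitf, the detected members with the largest fold changes between groups, are shown so that the letters at their starts can be read beside the values. All 4 members had an entry in the RefSeq promoter table (build GRCm38.p6), with 9 windows of 300 bases in all, each reaching from 250 bases before a start to 50 after it. The 250 bases before the start are printed for the most upstream start of Tfeb (chr17:47736787-47737036, plus strand), and for the most upstream and the most downstream of the 3 starts of Mitf (chr6:97806808-97807057 and chr6:97991533-97991782, plus strand). The most downstream start is that of the isoform of pigment cells. Capitals mark a match to TGACGTCA, the cAMP response element.
Tfeb, most upstream start: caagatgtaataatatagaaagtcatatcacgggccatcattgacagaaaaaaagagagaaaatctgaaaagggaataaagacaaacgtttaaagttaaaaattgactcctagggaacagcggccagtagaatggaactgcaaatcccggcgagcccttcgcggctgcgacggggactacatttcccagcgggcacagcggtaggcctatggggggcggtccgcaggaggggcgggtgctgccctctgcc
Mitf, most upstream start: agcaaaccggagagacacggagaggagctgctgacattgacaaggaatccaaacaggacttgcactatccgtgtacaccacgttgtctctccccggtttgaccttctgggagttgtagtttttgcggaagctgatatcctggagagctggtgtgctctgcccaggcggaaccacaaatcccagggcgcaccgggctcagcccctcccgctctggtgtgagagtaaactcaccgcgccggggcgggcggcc
Mitf, most downstream start: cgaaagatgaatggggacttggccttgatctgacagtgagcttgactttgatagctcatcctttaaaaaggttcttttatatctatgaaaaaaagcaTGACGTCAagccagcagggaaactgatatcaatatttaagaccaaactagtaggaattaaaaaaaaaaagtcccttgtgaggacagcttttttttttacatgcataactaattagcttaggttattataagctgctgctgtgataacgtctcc
The match begins 153 bases before the most downstream start of Mitf, and TGACGTCA was in 1.79% of 32851 promoter windows of this length, both strands searched. The E-box core CACGTG (7.15% of all windows), its extended form TCACGTGA (0.974%), which contains CACGTG, the M-box TCATGTG (3.77%) and the AP-1 site TGACTCA (5.2%) were in none of the 9 windows of the family. The absence of these letters from a window says nothing about binding elsewhere in the gene. The counts are per gene, so they do not show which start was used.

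Tfeb encodes the member best known as a regulator of lysosome formation, and it was 1 of the targeted genes. Its transcript was measured at 38.9, 39.2 and 42.1 CPM in the Null control libraries and at 4.6, 6.09 and 4.68 CPM in the DKO control libraries. With the drug the libraries had 11.4, 10.2 and 10.4 CPM in Null MEFs and at 1.92, 1.61 and 2.20 CPM in DKO MEFs. Every group stood apart from the others, in the order Null control, Null etoposide, DKO control and DKO etoposide. Even the lowest library, at 95 counts, was far above the 3 counts taken as the limit of detection, so transcripts of Tfeb were still made in the DKO MEFs. The fall with etoposide had a log2 fold change of -1.91 (SE 0.08, Benjamini-Hochberg adjusted p = 4.83e-13 in edgeR's quasi-likelihood test) in Null MEFs and of -1.42 (SE 0.14, adjusted p = 4.6e-08 by the same edgeR test) in DKO MEFs. In the DKO MEFs the fall was smaller by 0.49 (SE 0.17, adjusted p = 0.0195 by the same edgeR test for the interaction). This difference rested on single libraries. It was 0.40 (adjusted p = 0.0593 by the same edgeR test) without DKO control replicate 1 and 0.32 (adjusted p = 0.178 by the same edgeR test) without DKO etoposide replicate 3, and over all alternatives its adjusted p ran from 0.00221 to 0.178.

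Tfe3, the other targeted gene, encodes a factor with targets and control much like those of TFEB. Its transcript was measured at 115, 110 and 114 CPM in Null controls and at 94.1, 93.1 and 91.0 CPM in DKO controls. After etoposide the Null libraries held 68.5, 69.6 and 68.1 CPM and the DKO libraries 70.7, 71.2 and 63.4 CPM. The controls of each line lay above every treated library and apart from each other, while the treated libraries of the 2 lines overlapped. Between its lowest and highest library, at 63.4 and 115 CPM, Tfe3 differed by a smaller ratio than Tfeb or Mitf. Etoposide lowered it by a log2 fold change of -0.72 (SE 0.04, Benjamini-Hochberg adjusted p = 3.39e-11 in edgeR's quasi-likelihood test) in Null MEFs and of -0.44 (SE 0.04, adjusted p = 4.77e-08 by the same edgeR test) in DKO MEFs. The latter was -0.17 when libraries were scaled by their size alone. The interaction was 0.28 (SE 0.06, adjusted p = 0.000697 by the same edgeR test), and the levels of the 2 lines, apart before the drug, overlapped after it.

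Mitf encodes the factor that directs pigment cell development, and the gene was not targeted. It was measured at 8.63, 9.14 and 8.94 CPM in Null controls and at 42.9, 42.5 and 44.4 CPM in DKO controls. After etoposide the values were 23.2, 22.6 and 22.3 CPM in Null MEFs and 14.6, 13.1 and 14.2 CPM in DKO MEFs. The order of the groups was therefore DKO control, Null etoposide, DKO etoposide and Null control, with no overlap between any of them. The line with the lower level before the drug had the higher level after it. Among untreated libraries Mitf was 4.86-fold higher in DKO than in Null MEFs, a log2 fold change of 2.28 (SE 0.05, Benjamini-Hochberg adjusted p = 2.53e-16 in edgeR's quasi-likelihood test). After etoposide it was lower in DKO MEFs, with a log2 fold change of -0.70 (SE 0.05, adjusted p = 1.47e-09 by the same edgeR test).

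The reversal of Mitf came from opposite responses to the drug. In Null MEFs Mitf rose 2.55-fold, a log2 fold change of 1.35 (SE 0.06, Benjamini-Hochberg adjusted p = 2.47e-13 in edgeR's quasi-likelihood test). In DKO MEFs it fell, with a log2 fold change of -1.63 (SE 0.05, adjusted p = 8.76e-15 by the same edgeR test). The difference between these responses, the interaction, was -2.98 (SE 0.08, adjusted p = 1.02e-14 by the same edgeR test), and it stayed between -3.05 and -2.88 over all other settings. All these directions held under each scaling of the libraries. In Null MEFs the 3 detected members thus parted, with Tfeb and Tfe3 lower and Mitf higher after the drug, whereas in DKO MEFs all 3 were lower.

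Tfec encodes the member known from macrophages and osteoclasts. All 6 control libraries had 0 counts, which allows up to 3 counts, or 0.0326 to 0.0503 CPM. After etoposide the Null libraries had 11, 2 and 3 counts and the DKO libraries 0, 2 and 0. Only Null etoposide replicate 1, with 11 counts (0.134 CPM), was above the limit of 3 counts. Tfec did not pass edgeR's expression filter and was not tested, and no fold change is given.

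**Figure D1:**
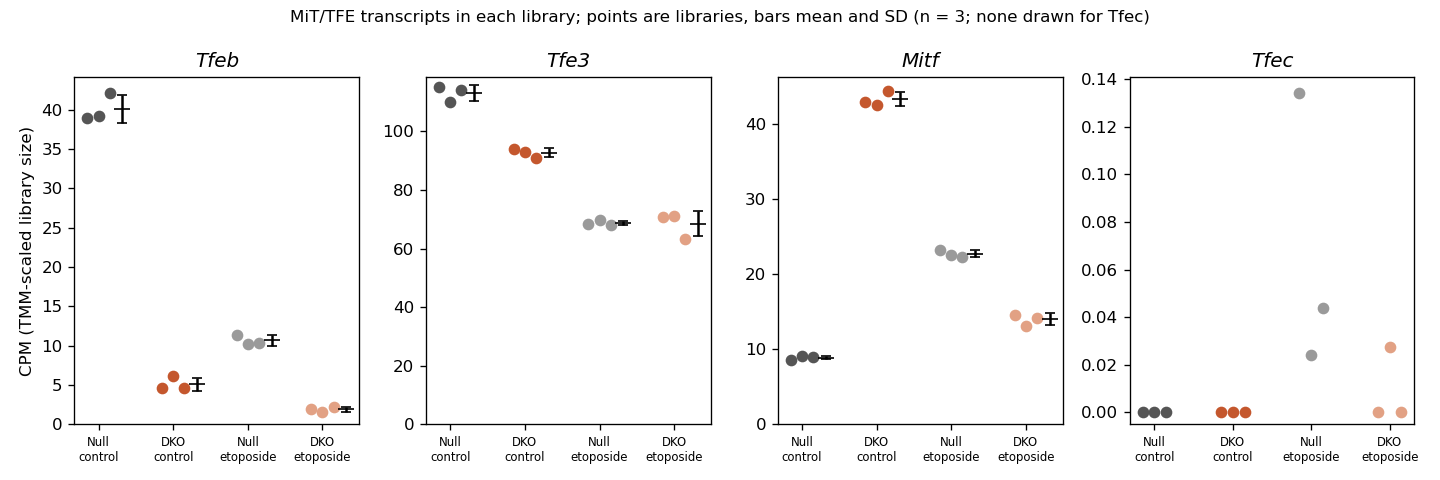
CPM of Tfeb, Tfe3, Mitf and Tfec in each library (points), with the mean and SD of 3 libraries (bars, not drawn for Tfec) and a scale of its own for each gene. Mitf was highest in DKO controls (42.5 to 44.4 CPM) and lowest in Null controls (8.63 to 9.14 CPM), while Tfeb was highest in Null controls.

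These changes stood among many. Of 15220 genes tested, etoposide changed 79.4% in Null MEFs and 75.1% in DKO MEFs at an adjusted p under 0.05. DKO and Null MEFs differed in 66.7% of genes untreated and in 74.0% after etoposide, and the interaction was past the threshold for 54.0%. Against these shares, all 3 tested members were past the threshold in each comparison but that of DKO with Null MEFs after etoposide, where Tfe3 was not (log2 fold change -0.01, SE 0.04, Benjamini-Hochberg adjusted p = 0.871 in edgeR's quasi-likelihood test). With so many genes changed, passing the test does not set the members apart. The comparisons also share libraries, so they are not independent of each other. The level of all genes depended on the scaling. With library size alone, the median over all genes, in log2, moved by 0.17 and 0.27 for etoposide in Null and DKO MEFs, by -0.12 for untreated DKO against Null MEFs and by 0.10 for the interaction. The share of higher genes among those past the threshold then moved from 53.2 to 64.0%, from 58.1 to 75.6%, from 49.9 to 38.4% and from 54.8 to 65.2%. With DESeq2's size factors the share moved to 47.5% for the interaction, and from 50.6 to 45.4% for DKO against Null MEFs after etoposide. With library size alone Mitf still rose by 1.52 in Null MEFs and fell by 1.36 in DKO MEFs.

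**Figure D2:**
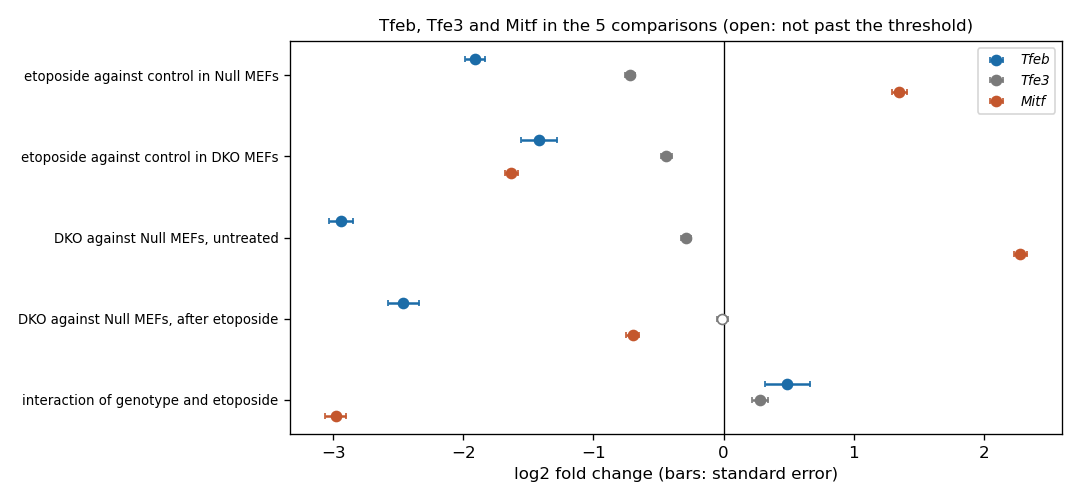
Log2 fold changes of Tfeb, Tfe3 and Mitf in the 5 comparisons, with standard errors as bars and filled points past the threshold on the adjusted p. Mitf lies on opposite sides of 0 for etoposide in Null MEFs (1.35) and in DKO MEFs (-1.63), and for the lines before (2.28) and after the drug (-0.70).

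To compare levels between members, CPM was divided by the length of all exons of a gene in GENCODE, 5669 bases for Tfeb, 9261 for Tfe3, 6196 for Mitf and 5594 for Tfec. In Null controls the level per length was 12.2 ± 0.305 CPM per kb for Tfe3, 7.07 ± 0.313 for Tfeb and 1.44 ± 0.042 for Mitf (SD, n = 3 each). In DKO controls it was 10.0 ± 0.173 CPM per kb for Tfe3, 6.98 ± 0.158 for Mitf and 0.904 ± 0.147 for Tfeb (SD, n = 3 each). Mitf was thus the member next to Tfe3 in DKO controls, as Tfeb was in Null controls. In Null MEFs after etoposide the levels per length were 7.42 ± 0.084 for Tfe3, 3.66 ± 0.0713 for Mitf and 1.88 ± 0.12 CPM per kb for Tfeb (SD, n = 3 each). In DKO MEFs after etoposide they were 7.39 ± 0.472, 2.26 ± 0.13 and 0.337 ± 0.0523 CPM per kb, in the same order of genes. Within each group the 3 members stood apart by more than the SD of their libraries.

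Summed over the family, the level per length was 20.7 ± 0.475 CPM per kb in Null controls and 17.9 ± 0.0875 in DKO controls (SD, n = 3 each). After etoposide the sum was 13.0 ± 0.194 CPM per kb in Null MEFs and 9.99 ± 0.409 in DKO MEFs. The groups did not overlap in this sum, yet the untreated lines were closer in it than in either Tfeb or Mitf. In DKO MEFs the sum includes transcripts of the targeted genes Tfeb and Tfe3. Whether these transcripts encode working protein was not tested, so the sum is not a level of working factors. The share of Mitf in the sum was 6.94 ± 0.303% in Null controls, 39.0 ± 1.07% in DKO controls, 28.2 ± 0.139% in Null MEFs after etoposide and 22.6 ± 1.61% in DKO MEFs after etoposide. Tfeb had shares of 34.1 ± 0.936, 5.05 ± 0.8, 14.5 ± 0.746 and 3.39 ± 0.637% in the same order of groups. Tfe3 held 55.9 to 58.9% in the first 3 groups and 74.0 ± 2.21% in DKO MEFs after etoposide.

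These shares depend on the length used. With the longest coding transcript in place of all exons, a choice made after the data were seen, the share of Mitf was 3.49% in Null controls, 23.1% in DKO controls, 15.7% in Null MEFs after etoposide and 12% in DKO MEFs after etoposide. Tfe3 then held 63.8, 71.2, 68.7 and 84.5%, so its share was no longer similar in the first 3 groups. By this length Mitf in DKO controls was at 8.86 ± 0.201 CPM per kb and Tfeb in Null controls at 17.1 ± 0.759, whereas over all exons they were alike. The family sum was then 52.3 ± 1.24 CPM per kb in Null controls and 38.4 ± 0.432 in DKO controls. The untreated lines thus stood further apart in the sum than over all exons. The order of the members was kept in all groups, but in Null MEFs after etoposide Mitf and Tfeb, at 4.65 ± 0.0905 and 4.55 ± 0.289 CPM per kb, no longer differed beyond their SD. No exon of another gene in the annotation overlapped an exon of a member.

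**Figure D3:**
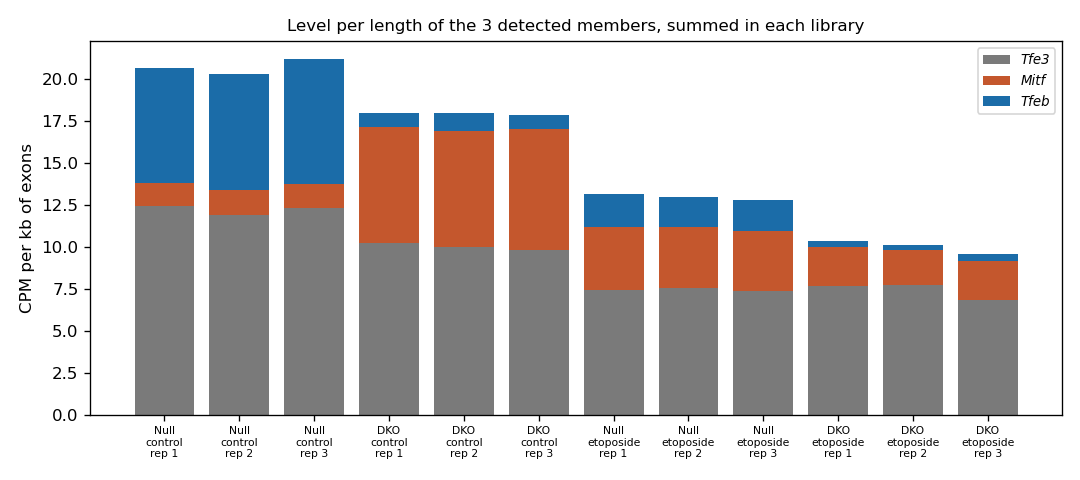
Level per length, in CPM per kb of exons, of Tfe3, Mitf and Tfeb, stacked for each library. The stack reaches 20.3 to 21.2 in Null controls and 17.8 to 18.0 in DKO controls. Over all exons Mitf has a mean of 6.98 in DKO controls and Tfeb one of 7.07 in Null controls. By the longest coding transcript, not drawn here, these means are 8.86 and 17.1, so they are alike only over all exons.

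For each member expressed at 1 CPM or more on average, the genes with the most similar levels over the 12 libraries were sought among 9352 others, by Pearson correlation of log2 CPM. These correlations describe 4 groups of libraries rather than 12 separate conditions. For Mitf they included Wnt7b (r = 0.977, n = 12), a secreted WNT ligand, at 5 CPM in Null controls, 44.8 in DKO controls, 16.8 in Null MEFs after etoposide and 13.0 in DKO MEFs after etoposide. Others were Dusp7 (r = 0.977), a MAP kinase phosphatase, Dab2ip (r = 0.976) and Ptpre (r = 0.976). All 4 had their highest mean in DKO controls and their lowest in Null controls, as had Mitf, whose levels they were chosen to resemble. For Tfeb they were Arsj (r = 0.996), Ablim1 (r = 0.993), Fam84b (r = 0.993), Gramd4 (r = 0.992) and Eif4b (r = 0.992). Fam84b had a range wider than that of Tfeb, from 78.6 CPM in Null controls to 0.643 in DKO MEFs after etoposide. For Tfe3 they were the mitochondrial fusion gene Mfn2 (r = 0.992), Arnt (r = 0.992), which encodes another basic helix-loop-helix factor, Magi3 (r = 0.991), Suv420h1 (r = 0.990) and Tgif2 (r = 0.989).

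The chromosomal surroundings of the members were examined with the 3 protein-coding genes on each side, 24 in all, of which 20 were tested. Next to Mitf, Frmd4b, Foxp1, Eif4e3 and Arl6ip5 were higher in untreated DKO than in untreated Null MEFs, as was Mitf itself. Frmd4b had 0.079 CPM in Null and 0.774 in DKO controls (log2 fold change 3.20, Benjamini-Hochberg adjusted p = 2.9e-06 in edgeR's quasi-likelihood test). It had at most 77 counts in any library, and 0 of the Null control libraries were over the cutoff of the expression filter. Foxp1, a forkhead factor, had 174 CPM in Null and 306 in DKO controls (log2 fold change 0.81, adjusted p = 1.68e-12 by the same edgeR test). Eif4e3, a relative of the cap-binding protein, was like Mitf in being higher in DKO MEFs before the drug and lower after it, but was highest in treated Null MEFs, with 10.4 CPM in Null controls, 23.0 in DKO controls, 36.2 in Null MEFs after etoposide and 20.6 in DKO MEFs after etoposide. Its log2 fold change between the lines was 1.13 untreated (adjusted p = 1.17e-10 by the same edgeR test) and -0.81 after etoposide (adjusted p = 2e-09 by the same edgeR test). Foxp1 (0.41) and Arl6ip5 (0.36) were higher in DKO MEFs after etoposide, unlike Mitf. Of the 5 tested neighbours of Mitf, 2 were then higher and 1 lower. Gm765, also next to Mitf and called higher untreated, had at most 29 counts in any library and passed the expression filter through the DKO controls, the group where it was highest, so its call was favoured by the filter.

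Around Tfeb the tested neighbours differed in direction. Frs3, an adaptor of FGF receptors, was lower in untreated DKO MEFs (log2 fold change -0.54) and Foxp4 was higher by 0.79, against -2.94 for Tfeb, and Mdfi and Prickle4 did not pass the test. After etoposide Mdfi (-0.69) and Frs3 (-0.31) were lower in DKO MEFs, as was Tfeb (-2.46), and Foxp4 was higher (0.18, or 0.12 and not past the threshold with DESeq2's size factors). Near Tfe3, 4 of 6 neighbours were higher in untreated DKO MEFs and none was lower, while Tfe3 had a log2 fold change of -0.29. After etoposide 5 of the 6 were higher, among them Otud5, a deubiquitinase, at 0.65, and Kcnd1, a potassium channel gene, at 1.01. Near Tfec, which was at or near 0, the caveolin genes Cav1 and Cav2 were abundant, at 372 and 79.1 CPM in Null controls. Ppp1r3a, on its other side, had 0 CPM in the controls and at most 6 counts in any library, and Foxp2 was at 0.195 CPM in Null controls. Of the 5 tested neighbours of Tfec, 4 were lower and 0 higher in untreated DKO MEFs, against 33.4% and 33.3% of all genes. Among the 4 were Cav2 (-0.12), whose call was lost with DESeq2's size factors, and Foxp2. In DKO controls Foxp2 was at 0.0433 CPM, where the limit of detection was 0.0326 to 0.0503 CPM. After etoposide 4 were lower, such as Cav2 (-1.56) and Cav1 (-1.22), and Mdfic was higher (0.95). Over all 20 tested neighbours, 10 were higher and 5 lower in untreated DKO MEFs. Of all genes, 66.7% were past the threshold there (33.3% higher and 33.4% lower). The 10 include Gm765, whose call was favoured by the filter. After etoposide 9 of the neighbours were higher and 7 lower, where 74.0% of all genes were past the threshold.

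**Figure D4:**
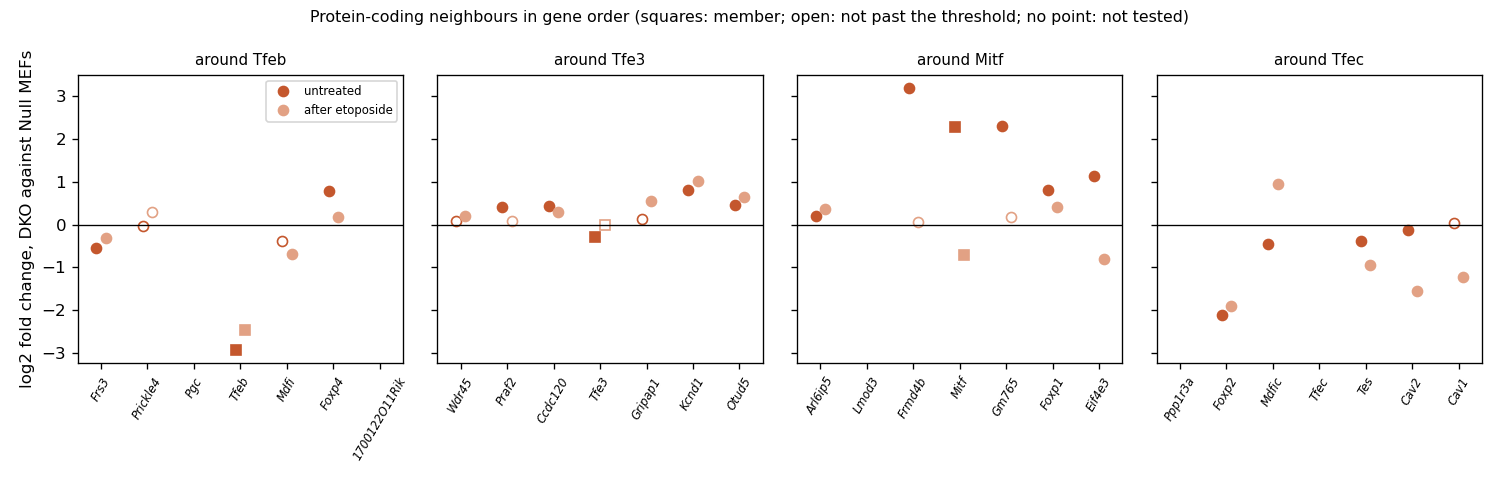
Log2 fold change between DKO and Null MEFs of each member (squares) and the 3 protein-coding genes on each side of it (circles), in gene order, filled where past the threshold and without a symbol where not tested. Around Mitf, Frmd4b (3.20), with at most 77 counts in any library, lies highest in untreated cells.

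Genes that act on MiT/TFE proteins, or that these proteins are known to act on, were followed in 8 lists with 88 different genes, of which 83 were tested. For the lists together, 41 genes were higher and 23 lower in untreated DKO than in untreated Null MEFs, against 33.3% and 33.4% of all genes. After etoposide 45 were higher and 18 lower in DKO MEFs, against 37.5% and 36.6% of all genes. With etoposide 20 rose and 43 fell in Null MEFs (42.3% and 37.2% of all genes), and 25 rose and 40 fell in DKO MEFs (43.7% and 31.5%), without Prkcb, Tyrp1 and Trpm1, which had at most 3 counts in every control library and were left out here after the data were seen. The interaction was past the threshold and above 0 for 33 genes, and past it and below 0 for 20 (29.6% and 24.4% of all genes). These counts depended on the scaling. With library size alone, and all 83 genes counted, they were 31 higher and 32 lower for untreated DKO against Null MEFs, 34 and 30 for etoposide in Null MEFs, 44 and 19 for etoposide in DKO MEFs, and 42 and 16 for the interaction. With DESeq2's size factors the interaction had 25 and 24. For the lines after etoposide the counts were 44 and 19 with library size alone and 40 and 23 with DESeq2's size factors.

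Upstream of the family, the largest differences were in the Rag GTPases, which recruit mTORC1 and MiT/TFE proteins to lysosomes. Rragd, also a known target of the family, was measured at 3.93, 3.87 and 4.32 CPM in Null controls and at 0.105, 0.109 and 0.0671 CPM, from 4 to 10 counts, in DKO controls. With the drug the libraries had 7.03, 7.54 and 8.08 CPM in Null MEFs and at 0.830, 0.751 and 0.814 CPM in DKO MEFs. Every DKO library lay below every Null library, with log2 fold changes of -5.37 untreated (SE 0.23, Benjamini-Hochberg adjusted p = 7.48e-13 in edgeR's quasi-likelihood test) and -3.24 after etoposide (SE 0.13, adjusted p = 2.35e-13 by the same edgeR test). Rragb went the other way, from 1.98 ± 0.115 to 13.3 ± 0.133 CPM without the drug and from 3.31 ± 0.263 to 20.5 ± 0.743 CPM with it (SD, n = 3 each). Its log2 fold changes were 2.75 and 2.62. The folliculin partners Fnip1 and Fnip2, which take part in releasing and holding TFEB and TFE3 through the Rag GTPases, were higher in DKO MEFs untreated (log2 fold change 1.00 and 0.74) and after etoposide (0.66 and 1.20). In this list of 12 genes, 7 were higher and 4 lower untreated, against 33.3% and 33.4% of all genes. With library size alone the untreated counts were 5 and 4. The median log2 fold change untreated was 0.19 beside -0.02 for all genes. After etoposide 9 were higher and 3 lower, against 37.5% and 36.6% of all genes, with a median of 0.35 beside 0.

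Of the 10 genes of mTORC1 and its direct controls, 7 were lower and 1 higher in untreated DKO MEFs, against 33.4% and 33.3% of all genes. Their median log2 fold change was -0.28. Among them Rptor, the subunit that recognises substrates, had a log2 fold change of -0.75 and Tsc2, which restrains the complex, one of -0.63. After etoposide 2 were lower and 3 higher, against 36.6% and 37.5% of all genes, with a median of 0.03. With DESeq2's size factors 3 were lower and 2 higher. Rheb, the activating GTPase, was higher by 0.68 after etoposide. The interaction was past the threshold and above 0 for 9 of these 10 genes, and past it and below 0 for 1. Of all genes, 29.6% and 24.4% were so. With DESeq2's size factors the counts were 7 and 1.

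Of all genes, 33.3% were higher and 33.4% lower in untreated DKO MEFs, and 37.5% and 36.6% after etoposide. The 7 genes of 14-3-3 proteins, which bind phosphorylated MiT/TFE proteins, had 3 higher and 1 lower in untreated DKO MEFs (median 0.13). After etoposide 5 of them were higher and 1 lower (median 0.18), or 3 and 1 with DESeq2's size factors. Sfn was higher by 1.21 and 0.84 and Ywhaz was lower (log2 fold change -0.38 and -0.30). With library size alone the untreated counts were 3 higher and 3 lower. Among other kinases known to phosphorylate the family, Prkcb had 0 counts in every control library and is left out. Of the other 9, 5 were higher and 4 lower in untreated DKO MEFs, or 2 and 4 with library size alone, and after etoposide 5 of all 10 were higher and 1 lower (median 0.26). Map4k3, a kinase of nutrient signalling, was higher untreated (log2 fold change 1.25) but not after etoposide (0.07, adjusted p = 0.103 by the same edgeR test as above). Cdk6, a kinase of the G1 phase, was lower by -2.36 untreated and -1.77 after etoposide.

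Calcineurin, protein phosphatase 2A, the lysosomal calcium channel Mcoln1, the exporter Xpo1 and the ubiquitin ligase Stub1, which act on the state or place of these proteins, showed small differences between the lines. Of the 10 genes, 4 were higher and 3 lower in untreated DKO MEFs (2 and 6 with library size alone), against 33.3% and 33.4% of all genes. After etoposide 5 were higher and 1 lower (4 and 4 with DESeq2's size factors), against 37.5% and 36.6% of all genes. The largest difference among the 10 was that of the calcineurin subunit Ppp3r1 after etoposide, at 0.67. Etoposide itself lowered 9 of the 10 in Null MEFs and 8 in DKO MEFs, against 37.2% and 31.5% of all genes. With library size alone, 5 were lower and 1 higher in Null MEFs, and 3 lower and 3 higher in DKO MEFs.

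Among 8 other factors at E-box or CLEAR elements, 5 were higher and 2 lower in untreated DKO MEFs, against 33.3% and 33.4% of all genes. After etoposide 6 were higher and 2 lower, against 37.5% and 36.6% of all genes. Bhlhe41, a repressor that binds E-boxes, was measured at 2.25 ± 0.494 CPM in Null controls and 14.4 ± 0.255 CPM in DKO controls (SD, n = 3 each), and the log2 fold change was 2.69. Its relative Bhlhe40, also a target of TFEB and TFE3, was higher by 1.01 untreated. After etoposide Bhlhe41 was still higher in DKO MEFs (log2 fold change 1.06), while Bhlhe40 was lower (-0.25). With etoposide both fell in DKO MEFs, with log2 fold changes of -1.60 and -3.46. In Null MEFs Bhlhe40 fell too (-2.20), while Bhlhe41 was at 2.27 ± 0.144 CPM after the drug. Usf1 and Usf2, factors of the same E-box, were higher in DKO MEFs untreated (0.53 and 0.54) and after etoposide (0.40 and 0.90). For Usf2 after etoposide, DKO replicate 2 stood at 59.7 CPM against 34.8 and 33.6 in the other DKO libraries and 21.6 to 24.9 in Null libraries, so this library adds to the size of that difference.

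Known targets of MiT/TFE proteins were not lower as a list in the DKO MEFs. Of 30 genes, 21 were higher and 4 lower than in Null MEFs untreated, against 33.3% and 33.4% of all genes. Their median log2 fold change was 0.30 beside -0.02 for all genes, and with library size alone the counts were 18 and 7. After etoposide 16 were higher and 10 lower, against 37.5% and 36.6% of all genes, with a median of 0.22 beside 0. Among targets of at least 1 CPM on average, the largest increases untreated were those of the lysosomal genes Cln3 (1.18) and Naglu (1.02). After etoposide, besides Rragd, the largest decreases among them were those of the autophagy genes Atg9b (-2.91) and Wipi1 (-1.30). Gpnmb, with fewer counts, was lower in DKO MEFs both untreated (-2.17) and after etoposide (-3.51). It had 4 to 10 counts per library in DKO controls and 3 to 8 in DKO MEFs after etoposide. In Null MEFs it had 17 to 48 and 58 to 74. It passed the expression filter through the Null groups, where it was higher, so its calls were favoured by the filter.

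Atg9b was near 0.5 CPM in every control group and was measured at 82.0, 73.2 and 63.9 CPM in Null MEFs and at 11.6, 9.37 and 8.76 CPM in DKO MEFs after etoposide. It thus rose in both lines, with all Null libraries above all DKO libraries, and the interaction was -2.86 (SE 0.37, Benjamini-Hochberg adjusted p = 4.54e-06 in edgeR's quasi-likelihood test). Wipi1 followed the course of Mitf in its directions with the drug, from 15.9 ± 0.614 to 36.2 ± 1.06 CPM in Null MEFs and from 19.2 ± 0.47 to 14.8 ± 1.06 CPM in DKO MEFs (SD, n = 3 each). Its fall in DKO MEFs (log2 fold change -0.38) was -0.11 and not past the threshold with library size alone. Among the 30 targets the interaction was past the threshold and above 0 for 6, and past it and below 0 for 13. Of all genes, 29.6% and 24.4% were so. With library size alone the counts were 10 and 11.

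Most pigment cell targets of Mitf had few or no counts in the controls, also in the DKO controls, where Mitf was highest. In these Tyr, Tyrp1, Dct and Mlana had 0 counts in every library. Pmel was measured at 0.666 ± 0.0874 CPM in Null controls and had 22 to 56 counts in DKO controls. After etoposide Pmel rose in both lines (log2 fold change 1.72 in Null and 1.99 in DKO MEFs), and Tyrp1 appeared with 16 to 31 counts in Null and 6 to 35 in DKO libraries, as did Trpm1 with 26 to 30 and 15 to 30. Untreated, only Pmel had enough counts to compare the lines (log2 fold change -0.37, adjusted p = 0.232 by the same edgeR test as above). After etoposide none of the 3 tested genes, Pmel, Tyrp1 and Trpm1, passed the threshold between the lines.

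**Figure D5:**
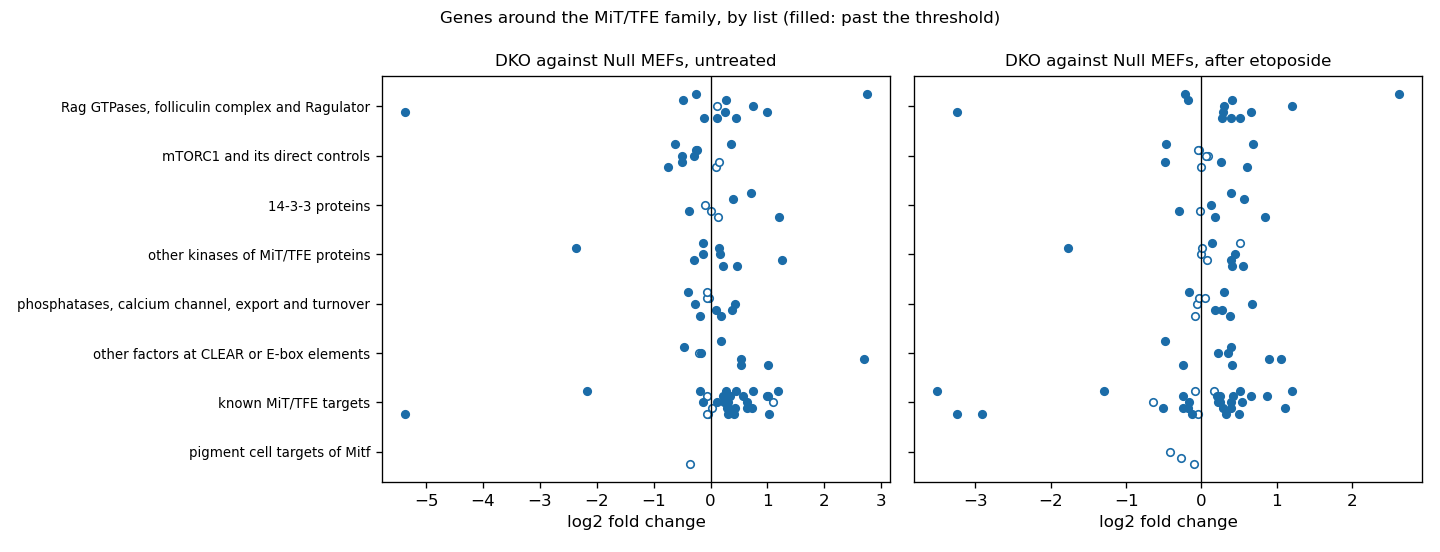
Log2 fold changes between DKO and Null MEFs for the genes (circles) of each list, filled where past the threshold, without genes at or under 3 counts in every library of a group. Rragd lies lowest in the list of Rag GTPases, at -5.37 and -3.24, and Rragb highest, at 2.75 and 2.62.

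Markers of fibroblasts were abundant in all groups, with a summed level over 8 genes of 6820 CPM in Null controls, 11200 in DKO controls, 3770 in Null MEFs after etoposide and 4890 in DKO MEFs after etoposide. Thy1 was an exception, at 4.21 CPM in Null and 0.0365 CPM in DKO controls. Markers of the cell types in which Mitf and Tfec are best known were low. The 6 osteoclast markers summed to 0.189 CPM in Null controls, 0.153 in DKO controls, 0.936 in Null MEFs after etoposide and 0.639 in DKO MEFs after etoposide. The 6 melanocyte markers summed to 0.666, 0.498, 2.82 and 2.37 CPM in the same order, and most of it was Pmel, while Sox10 had 0 counts in all controls. Among 6 macrophage markers only Cd14, which fibroblasts also express, was above 1 CPM on average, and Adgre1 had at most 6 counts. Epithelial markers summed to at most 3.18 CPM and endothelial markers to at most 2.89 CPM in any library. The sum of the macrophage markers was 16.4, 6.71, 65.9 and 11 CPM in the same order as above. The sums for macrophage, osteoclast, melanocyte, epithelial and endothelial markers were all higher after the drug in both lines. Tfec was above the limit of 3 counts only in Null etoposide replicate 1. Whether other cells contributed to these sums or counts was not tested. More cells of a type and more RNA per cell cannot be told apart in such sums.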

How the data were processed

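Members and gene lists were chosen with earlier results of these data known. The authors aligned read pairs with HISAT2, kept unique pairs and deposited 1 table of whole counts per gene. The labels name mm10 and featureCounts, the paper's methods name HTSeq, and versions and the strand setting are not stated. The 5 closing lines of the table, which name no gene, took 36.9 to 46.6% of each library and were left out.

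Genes kept by filterByExpr over the 4 groups (15220) were fitted with edgeR 4.0.16 in R 4.3.3, with the 4 groups of the 12 libraries in a single model, without replicate blocks. TMM factors, glmQLFit in its current form rather than its legacy form, and glmQLFTest were used, with Benjamini-Hochberg adjustment within each of 5 comparisons and a threshold of 0.05. The fit was tested on simulated data. The standard error is the log2 fold change divided by the root of F. An exact test of 3 against 3 libraries reaches 0.1 at the lowest. Libraries within groups varied beyond counting noise (chi-square per degree of freedom 11.1 to 23.3), so none was taken as a copy of another, though repeat preparations of a culture could differ as much. Limits of detection cover counting error only. Every library correlated better with its own group (0.9956 or more) than with any other (0.9066 or less), across genes.

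Lengths and exon overlaps came from GENCODE on GRCm38, which is mm10, and neighbours and promoters from RefSeq. The genes named besides members are from the 5 most similar per member (with an offset of 0.5 CPM and a mean of at least 10 CPM, and without 1 for Mitf that is not reported here), the 3 protein-coding neighbours per side, and from each list up to 4 past the threshold with the largest change between the lines and a mean of at least 1 CPM. Pmel, Tyrp1 and other pigment genes, Gpnmb, Prkcb, the interaction of lists and the marker genes were named after their values were seen. Alternatives were DESeq2 1.42.0, limma-trend (limma 3.58.1), DESeq2's size factors, library size alone, no filter, a stricter filter, a replicate block, robust dispersion, only the 6 libraries compared and each library left out. The legacy fit and the other gene length were added after seeing the data. Figures were drawn with matplotlib 3.10.9.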

Additional observations from a re-analysis of the deposited data

Results flagged for a closer look

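The response to etoposide differed between the lines for each of the 3 tested members, by the test of the interaction in edgeR. Given as the log2 response in DKO MEFs minus that in Null MEFs, the difference was -2.98 for Mitf, 0.28 for Tfe3 and 0.49 for Tfeb. For Tfeb it was not past the threshold when DKO control replicate 1 or DKO etoposide replicate 3 was left out.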

How the results depend on the processing

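Counts of genes past the threshold stayed within 1.5 times in all 5 comparisons under every alternative, and all log2 fold changes of Tfeb, Tfe3 and Mitf past the threshold kept their direction. The interaction for Tfeb (0.49) ranged from 0.32 to 0.63 with each library left out and lost its call without DKO control replicate 1 (0.40) and without DKO etoposide replicate 3 (0.32). The cause was not tested. Tfec passed no filter but that of at least 1 count, and has no value here.

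With the replicate number as a block, 10171 genes differed between untreated DKO and Null MEFs in place of 10157, the log2 fold change of Mitf was again 2.28, and no call of a member changed. The numbers did not pair the libraries: deviations from the group means correlated above 0.1 in 2 of 18 pairs, and 3 of 12 libraries correlated best with their own number.

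Counts of single lists moved more, under library size alone, DESeq2 or its size factors, either change of filter, the legacy fit and the replicate block. For example, 14-3-3 genes higher in DKO MEFs after etoposide were 3 in place of 5 with DESeq2, with its size factors and with the stricter filter. The shares of members in the family sum moved with the gene length. Depth limits Tfec, at 0 to 11 counts per library.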
